A study of Arabidopsis thaliana with 9 samples.

Results

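LNG1 (AT5G15580, LONGIFOLIA1, on chromosome 5) and LNG2 (AT3G02170, LONGIFOLIA2, on chromosome 3) are the 2 LONGIFOLIA genes followed here, out of 31124 loci in the deposited expression table of the Arabidopsis thaliana root oscillation zone. They were picked by locus identifier, and with their values in the 3 genotypes already known, so those values are given as a description and carry no test. The oscillation zone lies just behind the root tip. Auxin response pulses there, and the pulses mark where lateral roots will later form.

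The 3 genotypes, with 3 samples each, were profiled by RNA sequencing of oscillation zones cut from roots at 7 dpi. All plants grew on medium with 1% sucrose under 16 h of light and 8 h of dark. The first was potent, named in the series title as iaa18/potent, which carries a changed IAA18, a repressor of auxin response. The second was arf7, a mutant of ARF7, a transcription factor that switches on auxin-responsive genes. The third was the Control, wild type of ecotype Col0, labelled as collected at the minimum of oscillation. The treatment notes apply DR5::Luciferase, a luminescent reporter of auxin response, to all 3 groups, while the ecotype of the mutants and the phase at which they were collected are not given in the labels, so genotype and phase cannot be told apart. Each genotype has a single deposited value per locus, taken as FPKM (a count of sequenced fragments divided by the length of the transcript and by the mapped total), without the spread between its 3 samples. The number of reads behind the values is unknown.

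LONGIFOLIA proteins were first known for lengthening leaves: they promote the expansion of cells along the long axis of an organ. They belong to the TON1 Recruiting Motif (TRM) family, whose members bind microtubules and bring the TON1 protein, and a protein phosphatase with the regulatory subunit TON2, to the cortical microtubules that set the direction of cell growth. LNG1 is also called TRM2, and LNG2 is also called TRM1.

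LNG1 and LNG2 were both far lower in the mutants than in the Control, and lowest in potent. LNG1 had 0.371 FPKM in potent and 2.91 FPKM in arf7, against 28.4 FPKM in the Control. LNG2 had 0.0527 FPKM in potent and 0.733 FPKM in arf7, against 12.8 FPKM in the Control. The order of the 3 genotypes was therefore the same for both genes, and whether neighbours in that order differ beyond the spread between samples cannot be said from single values.

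**Figure D1:**
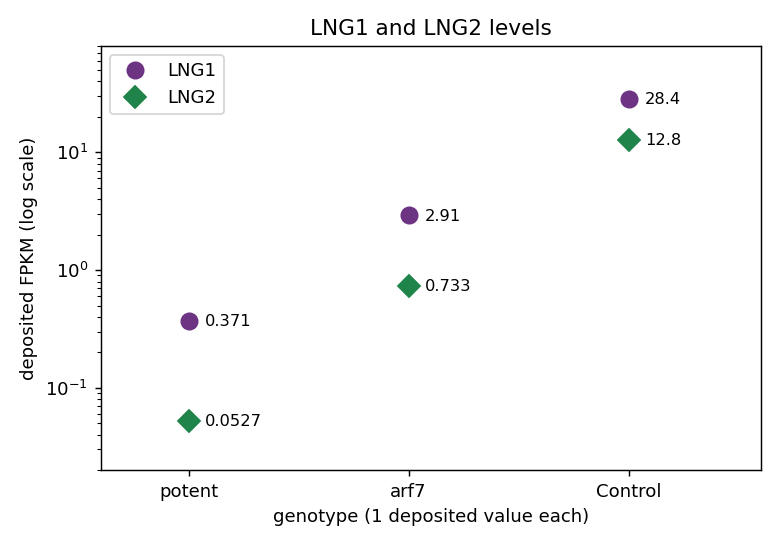
Deposited FPKM of LNG1 (circles) and LNG2 (diamonds) in potent, arf7 and the Control, on a log axis, with 1 value per genotype and no error available. LNG1 lies above LNG2 in each genotype, and both are lowest in potent (0.371 and 0.0527 FPKM) and highest in the Control (28.4 and 12.8 FPKM).

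As ratios of the deposited values, LNG1 was 76.5-fold lower in potent and 9.74-fold lower in arf7 than in the Control. LNG2 was 243-fold lower in potent and 17.5-fold lower in arf7. These ratios, with nothing added to the values, were larger for LNG2 than for LNG1 in each mutant, and in potent the order turns with 1 FPKM added. Potent retained 1.31% of the Control level of LNG1 and 0.411% of that of LNG2, and arf7 retained 10.3% and 5.72%.

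Because FPKM is scaled by transcript length, the levels of the pair can be set beside each other. LNG1 exceeded LNG2 by 7.04-fold in potent, 3.97-fold in arf7 and 2.21-fold in the Control. In both mutants this ratio rests on an LNG2 value below 1 FPKM, with an unknown number of reads behind it. The FPKM of both genes added up to 0.424 in potent and 3.65 in arf7, against 41.2 in the Control, or 1.03% and 8.85% of the Control sum. In the Control, LNG1 ranked 4707 and LNG2 ranked 7666 from the top of all loci, above 76.7% and 62.0% of the loci detected above 0 in that genotype. In potent, LNG1 lay above 9.42% and LNG2 above 2.40% of detected loci. The corresponding shares in arf7 were 35.3% for LNG1 and 18.4% for LNG2.

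The authors' deposited table of differential loci lists LNG1 as lower in both mutants and does not list LNG2 in either. LNG1 fell in potent, with a log2 fold change of -6.26 and a q-value of 0.00145 in the authors' deposited table. In arf7 it also fell, with a log2 fold change of -3.28 and the same q-value of 0.00145 in the authors' deposited table, which is the lowest q that table holds and is shared by 72.7% of its potent entries and 65.3% of its arf7 entries. Of the loci at 1 FPKM or more in at least 1 genotype, the same table lists 4.52% as lower in potent and 3.00% as lower in arf7, and 1.95% as lower in both. It lists 3.98% as higher in potent and 2.33% as higher in arf7, and neither LNG1 nor LNG2 is among them. These shares stand beside the count of 1 listed gene of the 2 followed here. Nothing is read from the comparison, since the values that chose the genes come from the same contrasts.

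The absence of LNG2 from that table was set beside other loci with large ratios. Among loci with at least 5 FPKM in the Control and a value above 0 but at least 16-fold lower in potent, 41 of 186 are listed as lower and 145 are not. The unlisted ones had a median of 0.321 FPKM in potent and 15.6 FPKM in the Control, whereas the listed ones had medians of 3.67 FPKM in potent and 102 FPKM in the Control. In arf7, 20 of 122 such loci are listed, with median values of 3.42 FPKM in arf7 and 102 FPKM in the Control, and the other 102 had medians of 0.376 FPKM in arf7 and 13.8 FPKM in the Control. LNG2, at 0.0527 FPKM in potent and 0.733 FPKM in arf7, against 12.8 FPKM in the Control, is unlisted. LNG1 is listed in potent at 0.371 FPKM, against 28.4 FPKM in the Control. Its potent value is close to the potent median of the unlisted loci. Its Control value lies between the Control medians of the unlisted and the listed loci. Why LNG2 has no entry was not tested.

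To place the pair among all loci, ratios were computed as log2((FPKM + 1)/(FPKM + 1)), a scale that understates differences of low values. On it LNG1 stood at -4.42 in potent and -2.91 in arf7, and LNG2 at -3.72 in potent and -2.995 in arf7, against the Control. The median of the 18220 loci with at least 1 FPKM in any genotype was 0.04 in potent and -0.0045 in arf7. Of those loci, 92 (0.505%) had a lower ratio than LNG1 in potent and 187 (1.03%) in arf7. For LNG2 the counts were 166 (0.911%) in potent and 173 (0.950%) in arf7. Both genes were at least 4-fold lower in both mutants on this scale, as were 2.05% of the 18220 loci. Counted for each mutant whatever the value in the other, 4.66% of loci passed that fold in potent and 2.80% in arf7. Both mutants are compared with the same Control samples, so the 2 ratios of a locus share their denominator.

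**Figure D2:**
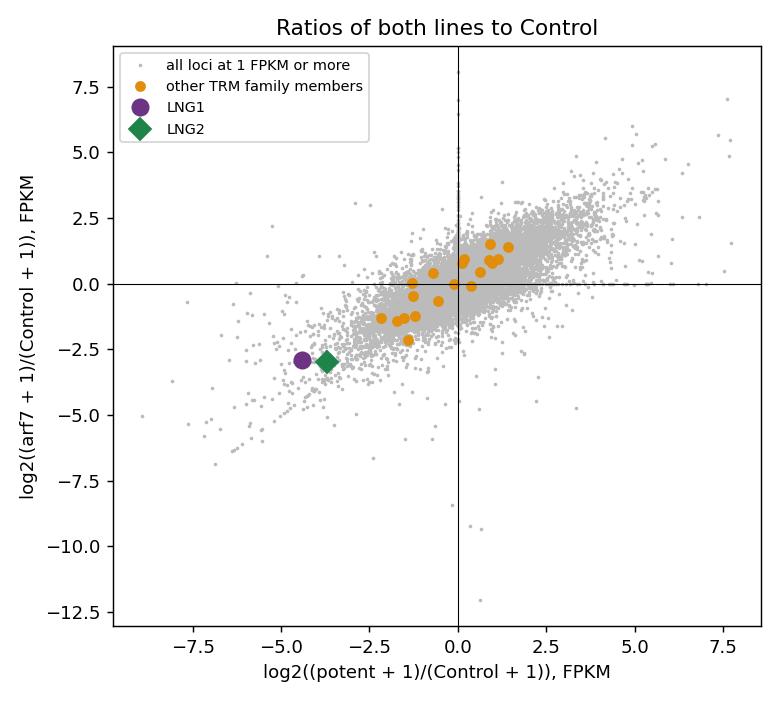
Log2 ratio to the Control, with 1 FPKM added to each value, in potent (horizontal) and arf7 (vertical) for the 18220 loci at 1 FPKM or more in any genotype (grey), with TRM family members in orange. LNG1 (-4.42, -2.91) and LNG2 (-3.72, -2.995) lie side by side at the lower left, away from the 19 other family members plotted, and both axes share the Control as denominator.

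Set directly against arf7, potent had the lower deposited value of both genes. LNG1 was 7.86-fold lower in potent than in arf7, and LNG2 was 13.9-fold lower. With 1 FPKM added the log2 ratios of potent over arf7 were -1.51 for LNG1 and -0.72 for LNG2, against a median of 0.02 over the 18220 loci, and 2.52% and 12.0% of loci had a lower ratio. With 0.1 FPKM added they were -2.68 and -2.45. The choice of the added value thus sets the size of this difference and which gene shows more of it, because LNG2 lies below 1 FPKM in both lines. There is no deposited comparison of the mutants with each other.

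On distance across the 3 genotypes, LNG1 and LNG2 were close to each other. The distance was taken between their pairs of log2 ratios to the Control, which gave 0.712 between LNG1 and LNG2, against a median of 5.33 from LNG1 to the 18343 other loci above 0 in all 3 genotypes, and 22 of those loci (0.120%) were nearer to LNG1 than LNG2 was. This count was chosen after the values were seen, because the 2 genes differ by 2.21-fold in the Control and so fall outside the 2-fold window on the Control level that was set for naming similar loci. Both genes were picked with their low values in the mutants known, so their closeness carries no test. The median distance mostly restates how far LNG1 lies from the many loci with ratios near 0.

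Within that window, the 5 loci nearest to LNG1 of 4495 were AT1G36060, MDP40 (AT1G23060), AT1G73160, AT1G64920 and AT3G13857, at distances of 0.225 to 0.455. AT1G36060 encodes a transcription factor of the DREB subfamily and had 0.307 FPKM in potent and 2.16 FPKM in arf7, against 26.7 FPKM in the Control. MDP40, a microtubule-destabilizing protein known from the elongating hypocotyl, had 0.552 FPKM in potent and 2.75 FPKM in arf7, against 25.6 FPKM in the Control. AT1G73160 and AT1G64920 encode members of the UDP-glycosyltransferase superfamily, and AT3G13857 an uncharacterized protein. The authors' deposited table lists AT1G73160 and AT1G64920 as lower in arf7 and none of the 5 in potent.

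The 5 loci nearest to LNG2, of 5282, were HVA22C (AT1G69700), AT1G67590, PKS2 (AT1G14280), ALMT12 (AT4G17970) and AT1G04237, at distances of 0.165 to 0.253. AT1G67590 encodes a remorin family protein and had 0.0144 FPKM in potent and 0.837 FPKM in arf7, against 12.0 FPKM in the Control. PKS2, a phytochrome kinase substrate involved in phototropism, had 0.0424 FPKM in potent and 0.781 FPKM in arf7, against 11.5 FPKM in the Control, and the authors' deposited table lists it as lower in arf7. HVA22C belongs to a family of genes induced by abscisic acid and stress, ALMT12 is an anion channel of stomatal closure, and AT1G04237 is annotated as a non-coding RNA. With 3 values per locus, many loci can have a like pattern.

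The TRM family was then examined around the pair. The reference annotation names 34 members, TRM1 to TRM34, of which TRM3 and TRM6 are not analysed here. Of the 32 in the table, TRM23, TRM24, TRM31 and TRM33 are listed at 0 in all 3 genotypes and 28 were above 0 in at least 1. Of these 28, 17 were below the Control in potent and 11 above it, and in arf7 16 were below and 12 above. Of the 21 members at 1 FPKM or more in any genotype, 12 were below the Control in potent and 11 in arf7. With that same minimum, 47.9% of the 18220 loci lay below the Control in potent and 50.2% in arf7. LNG1 is the only family member in the authors' deposited table, which lists it as lower in both mutants. Of the same 18220 loci, that table lists 4.52% as lower in potent, 3.00% in arf7 and 1.95% in both. It lists 3.98% as higher in potent and 2.33% in arf7, and nothing is read from the family count.

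With 1 FPKM added, the pair had the lowest ratios of the family in both mutants. At 1 FPKM or more in some genotype there were 19 other members, whose median log2 ratio was -0.10 in potent and 0.01 in arf7, with a range of -2.17 to 1.42 in potent and -2.14 to 1.51 in arf7. The lowest of them were TRM17 (AT2G20240) in potent and TRM5 (AT3G63430) in arf7, both named after their values were seen. TRM17 had 0.420 FPKM in potent and 1.58 FPKM in arf7, against 5.37 FPKM in the Control. TRM5 had 2.17 FPKM in potent and 0.927 FPKM in arf7, against 7.48 FPKM in the Control. Of the 19, TRM17 was at least 4-fold lower in potent and TRM5 in arf7 with 1 FPKM added, and no other was in either mutant. Without an added value the gap was smaller in arf7. There TRM11 (AT4G23020) was 8.19-fold and TRM5 8.06-fold lower than the Control, against 9.74-fold for LNG1 and 17.5-fold for LNG2. TRM11, named after its values were seen, had 0.0922 FPKM in potent and 0.314 FPKM in arf7, against 2.57 FPKM in the Control, which made it 27.8-fold lower in potent. TRM25 (AT5G62170) and TRM10 (AT4G11780), also named after their values were seen, are listed at 0 in both mutants. Their Control values were 1.33 FPKM and 0.950 FPKM, so no fold can be given without an added value. The place of the pair as lowest in the family thus depends on the added value.

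LNG1 had the highest value of the whole family in the Control, followed by TRM4, TRM21 and TRM28. TRM4 (AT1G74160), a near relative of LNG1 and LNG2, had 5.44 FPKM in potent and 6.42 FPKM in arf7, against 17.4 FPKM in the Control. TRM21 (AT5G43880) had 19.5 FPKM in potent and 33.6 FPKM in arf7, against 17.0 FPKM in the Control. TRM28 (AT5G03670) had 16.8 FPKM in potent and 27.1 FPKM in arf7, against 15.4 FPKM in the Control. Thus TRM4 shared the direction of LNG1 and LNG2 at a smaller ratio, while TRM21 and TRM28 lay above the Control in both mutants. TRM14 (AT3G61380) and TRM27 (AT2G36420), chosen after their values were seen, also lay above it in both. TRM14 had 27.1 FPKM in potent and 26.9 FPKM in arf7, against 14.1 FPKM in the Control. TRM27 had 23.3 FPKM in potent and 35.7 FPKM in arf7, against 11.9 FPKM in the Control.

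The makeup of the family's transcripts differed accordingly. LNG1 and LNG2 together made up 0.323% of the summed FPKM of the family in potent and 2.01% in arf7, against 22.9% in the Control. The other members summed to 131 FPKM in potent and 178 FPKM in arf7, against 139 FPKM in the Control.

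**Figure D3:**
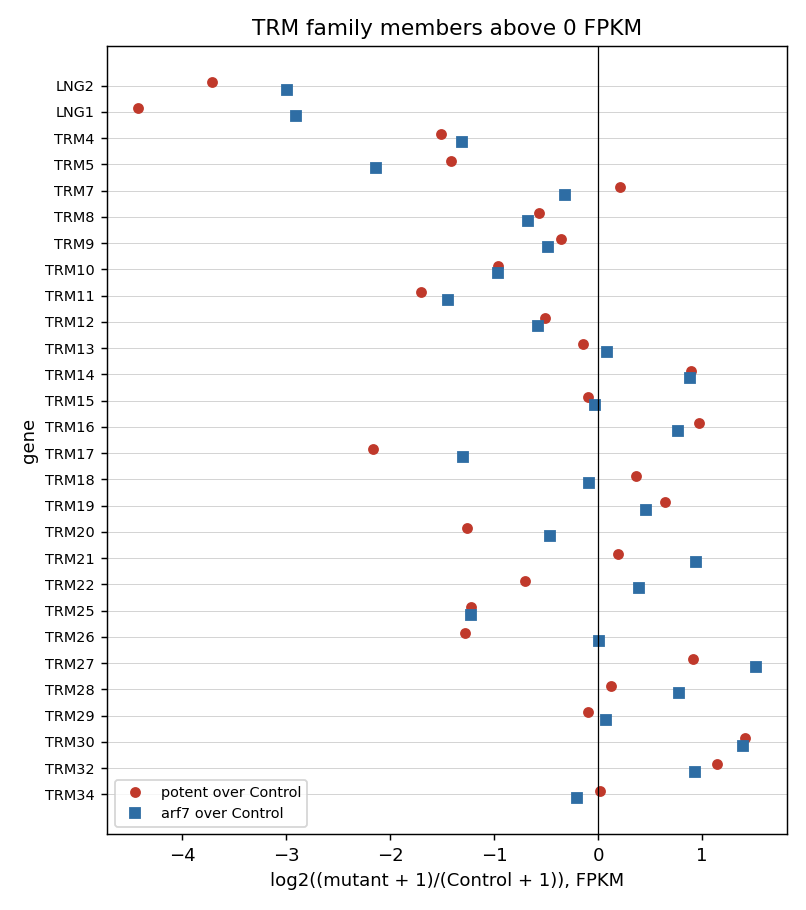
Log2 ratio to the Control, with 1 FPKM added to each value, in potent (red circles) and arf7 (blue squares) for the 28 TRM family members above 0 FPKM, ordered by TRM number (LNG2 is TRM1, LNG1 is TRM2). LNG1 and LNG2 have the lowest ratios of the family in both mutants, and the other members spread on both sides of 0.

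Transcripts for the proteins that TRM members bring to microtubules had smaller ratios. Of 6 genes for TON1 partners and subunits of the phosphatase complex, TON1A is not analysed here, and the other 5 were all below the Control in both mutants. Their median log2 ratio was -0.77 in potent and -0.54 in arf7. Of the 18220 loci at 1 FPKM or more in any genotype, 47.9% lay below the Control in potent and 50.2% in arf7. PP2AA1 (AT1G25490, also RCN1), a scaffold subunit of the phosphatase known for its part in auxin transport, fell to 22.7 FPKM in potent and 25.8 FPKM in arf7, against 68.7 FPKM in the Control, and is the only one in the authors' deposited table. That table lists 1.95% of the same 18220 loci as lower in both mutants. TON1B (AT3G55005) had 34.3 FPKM in potent and 46.3 FPKM in arf7, against 67.9 FPKM in the Control. TON2 (AT5G18580) had 33.7 FPKM in potent and 33.9 FPKM in arf7, against 49.2 FPKM in the Control. PP2AA2 (AT3G25800) had 38.3 FPKM in potent and 46.5 FPKM in arf7, against 51.8 FPKM in the Control, and PP2AA3 (AT1G13320) had 27.4 FPKM in potent and 28.6 FPKM in arf7, against 47.6 FPKM in the Control.

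Other regulators of cortical microtubules went both ways. Of 9 genes, 7 were below the Control and 2 above it in each mutant, with a median log2 ratio of -0.63 in potent and -0.61 in arf7. Over the 18220 loci at 1 FPKM or more in any genotype, the share below the Control was 47.9% in potent and 50.2% in arf7. MAP65-1 (AT5G55230), which bundles microtubules, fell in potent to 6.45 FPKM, against 28.5 FPKM in the Control. Its arf7 value was 10.7 FPKM, and there it is not in the authors' deposited table. MAP65-2 (AT4G26760), its close relative, fell in arf7 to 1.53 FPKM, against 16.4 FPKM in the Control. In potent it had 1.31 FPKM without being in that table. SPR1 (AT2G03680), which keeps cell growth straight, had 455 FPKM in potent and 567 FPKM in arf7, against 819 FPKM in the Control. The 2 genes above the Control were WVD2 and WDL1, related microtubule-binding proteins, with log2 ratios of 2.21 and 2.81 in potent and 1.28 and 0.71 in arf7.

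**Figure D4:**
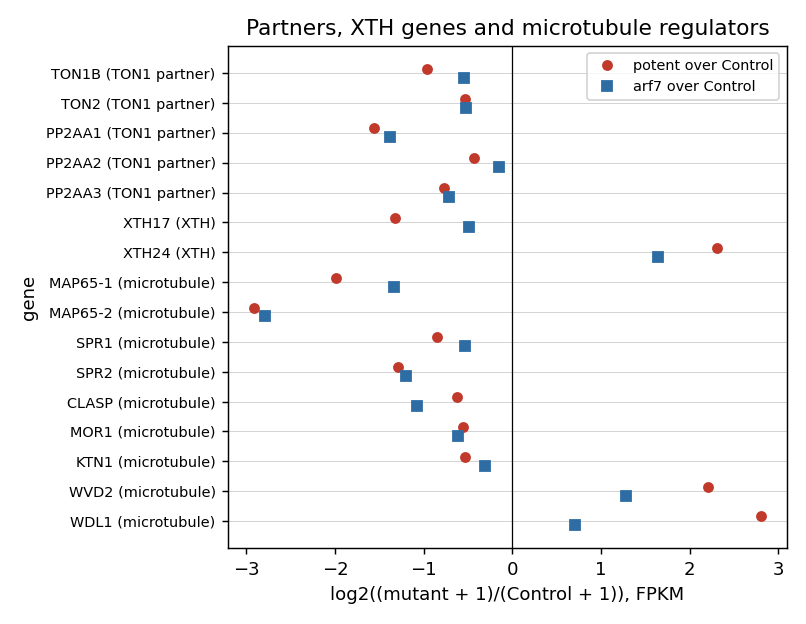
Log2 ratio to the Control, with 1 FPKM added to each value, in potent (red circles) and arf7 (blue squares) for TON1 partners, XTH genes linked to LNG1 and cortical microtubule regulators. All 5 TON1 partners lie below 0 in both mutants, from -1.56 to -0.16, and MAP65-2 lies lowest at -2.92 in potent and -2.79 in arf7. Below 0 lie also 47.9% of the 18220 loci at 1 FPKM or more in any genotype in potent, and 50.2% in arf7.

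Genes that earlier work on shoots placed downstream of LNG1 did not share a direction. XTH17 (AT1G65310) and XTH24 (AT4G30270) encode xyloglucan-modifying enzymes that loosen or rebuild the growing wall. XTH17 fell in potent to 106 FPKM, against 266 FPKM in the Control. Its arf7 value was 190 FPKM, not listed in the authors' deposited table. XTH24 rose in potent to 39.1 FPKM, against 7.08 FPKM in the Control. In arf7 it had 24.2 FPKM, again without an entry. XTH17 lay below the Control in both mutants, as LNG1 and LNG2 did, and XTH24 above it.

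Genes known from the shoot to act upstream of the pair or beside it were then read out. PIF4 (AT2G43010), a light- and temperature-regulated factor that activates LONGIFOLIA genes in warmed seedlings, is listed at 0 in all 3 genotypes. PIF5 (AT3G59060) is listed at 0 in potent and the Control and had 0.0341 FPKM in arf7. PIF3 (AT1G09530) had 2.67 FPKM in potent and 2.42 FPKM in arf7, against 0.0293 FPKM in the Control. ROT3 (AT4G36380), a cytochrome P450 of brassinosteroid metabolism that also lengthens leaves, rose in potent to 34.9 FPKM, against 12.8 FPKM in the Control. In arf7 it had 25.7 FPKM and no entry in the authors' deposited table. AN, which sets leaf width, is not analysed here.

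LNG1 and LNG2 each overlap another annotated gene on the opposite strand. The cited library protocol does not mark strand, so reads in the shared stretch cannot be told apart. AT5G15581, an uncharacterized gene, lies wholly inside LNG1 and shares 312 bases with it. It had 0 FPKM in potent and 0.0969 FPKM in arf7, against 6.95 FPKM in the Control, the same direction as LNG1. LNG2 shares 332 bases at its downstream end with AT3G02160, which encodes a bromodomain protein and had 0.702 FPKM in potent and 1.76 FPKM in arf7, against 2.29 FPKM in the Control. AT5G15570, the protein-coding gene before LNG1 on the chromosome, had 4.06 FPKM in potent and 2.81 FPKM in arf7, against 2.55 FPKM in the Control. The gene that flanks LNG1 on the opposite side was not read out. The next gene beyond LNG2 is SP1L3 (AT3G02180), a relative of SPR1, with 73.9 FPKM in potent and 79.3 FPKM in arf7, against 181 FPKM in the Control.

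Most markers of root hairs, non-hair epidermis, endodermis and xylem had higher values in the mutants than in the Control, opposite to LNG1 and LNG2. The exceptions were WER in both mutants and COBL9 in potent only (57.6 FPKM in potent and 96.5 FPKM in arf7, against 73.3 FPKM in the Control). Of the 18220 loci at 1 FPKM or more in any genotype, 47.9% lay below the Control in potent and 50.2% in arf7. Of the same 18220 loci, the authors' deposited table lists 3.98% as higher in potent and 2.33% as higher in arf7. The xylem markers XCP1 and XCP2 rose in both lines and summed to 384 FPKM in potent and 372 FPKM in arf7, against 79.2 FPKM in the Control. Of 3 root hair markers 2 rose in both lines (EXPA7 and EXPA18), and the 3 summed to 953 FPKM in potent and 780 FPKM in arf7, against 292 FPKM in the Control. The endodermal genes CASP1 and CASP4 summed to 5116 FPKM in potent and 4348 FPKM in arf7, against 1688 FPKM in the Control, and CASP4 rose in arf7. Of the non-hair epidermis markers, GL2 had 64.1 FPKM in potent and 60.1 FPKM in arf7, against 46.7 FPKM in the Control. The other, WER, had 0.438 FPKM in potent and 0.648 FPKM in arf7, against 12.8 FPKM in the Control. The 3 green shoot markers summed to 66.9 FPKM in potent and 32.7 FPKM in arf7, against 13.7 FPKM in the Control, mostly PSBO1, which rose in potent. The meristem genes PLT1 and PLT2 and the root cap genes SMB and BRN1 are listed at 0 in all 3 genotypes. Of the other meristem genes, WOX5 had 8.18 FPKM in potent and 0.767 FPKM in arf7, against 0.130 FPKM in the Control. CYCB1;1 had 2.81 FPKM in potent and 0.0351 FPKM in arf7, against 0.149 FPKM in the Control, so it lay below the Control in arf7. In bulk tissue, fewer cells that express LNG1 and LNG2 and less RNA per cell cannot be told apart, and the part that tissue makeup has in their values was not tested.

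The altered genes check the labels only in part. ARF7 (AT5G20730) had 9.35 FPKM in potent and 2.64 FPKM in arf7, against 12.0 FPKM in the Control. The level of IAA18 (AT1G51950) was 21.8 FPKM in potent and 19.1 FPKM in arf7, against 10.6 FPKM in the Control. Neither is in the authors' deposited table. How the transcript levels of ARF7 and IAA18 relate to those of LNG1 and LNG2 was not tested.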

How the data were processed

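Total RNA of 9 oscillation zone samples, 3 per genotype, was sequenced, and groups were taken from the sample titles. Build TAIR10 and the tools Cufflinks, Cuffdiff, TopHat, TopHat2, Bowtie and Bowtie2 appear in the submitters' processing notes, without versions or roles. The deposited expression table gives 1 value per genotype and locus and names no unit; the authors' values were taken as FPKM because of those tools and because the totals differ (879820 in potent, 850089 in arf7, 905924 in the Control). An exact 0 can be a failed estimate, so such loci are described as listed at 0. The authors' deposited comparison table has 2577 entries with q-values, and its 2087 numeric log2 fold changes differ from log2 ratios of the FPKM columns by at most 1.3e-05.

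No test was run, since the files hold no values of single samples: rose and fell mark entries of the authors' deposited table, and other loci are given by their values. Both genes and all gene lists were chosen with earlier results of these data known. Named are LNG1 and LNG2, listed TRM members and the 4 highest in the Control, all members of 4 short lists (TON1 partners, XTH, PIF and leaf shape genes), listed members and up to 2 abundant ones of the other lists, and the 5 loci nearest to each gene within 2-fold of its Control level. Names came from RefSeq's TAIR10.1 annotation, which matched 30847 loci and left 277 unmatched; overlaps between genes come from the same annotation. The ranking and distance steps were tested on simulated data. Python 3.11.15, pandas 2.3.3, numpy 2.4.6 and matplotlib 3.10.9 were used. Alternatives were an added value of 0.1 FPKM, 2 scalings and 2 expression filters.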

Additional observations from a re-analysis of the deposited data

How the results depend on the processing

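Both genes stayed below the Control in both mutants, and lower in potent than in arf7, under each added value and scaling tried. With 0.1 FPKM added in place of 1, the log2 ratios of LNG1 were -5.92 (potent over Control), -3.24 (arf7 over Control) and -2.68 (potent over arf7), and those of LNG2 were -6.40, -3.96 and -2.45. The larger size follows from the construction of the scale, since the mutant values lie near or below the added value. With each genotype scaled to the same sum, LNG1 had -4.41, -2.84 and -1.57, and LNG2 had -2.96 for arf7 over Control and -0.76 for potent over arf7. With the median log2 ratio set to 0, LNG1 had -2.89 for arf7 over Control and -1.53 for potent over arf7, and LNG2 had -2.98 and -0.73. The median log2 ratio to the Control over the 14304 loci at 1 FPKM or more in all 3 genotypes, which this scaling sets to 0, was -0.0021 in potent and -0.028 in arf7, and the log2 ratio of the sums was -0.042 and -0.092. The count of TRM members below the Control was 12 in potent and 11 in arf7 with a minimum of 1 FPKM, and no member changed side under the median scaling. Over loci at 5 FPKM or more in any genotype, 0.681% (potent) and 1.38% (arf7) had a lower ratio than LNG1, and 1.23% and 1.28% had a lower ratio than LNG2. No paired analysis was possible because each genotype has 1 deposited value, and for the same reason leaving out each replicate was not run. Depth is unknown, so no limit can be put on the values of LNG2 below 1 FPKM.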
